A study of Mus musculus with 2 samples.

Results

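Claudins and occludin are the membrane proteins of the tight junction, and 10 genes of this group were followed through the anorectal epithelium of the mouse. They are Cldn1, Cldn2, Cldn3, Cldn4, Cldn7, Cldn8, Cldn12, Cldn15 and Cldn23, which are 9 claudins, and Ocln, which encodes occludin. The genes were listed by name, with earlier results of these data known. All 10 were found among the 31054 features of the normal library and the 32285 features of the wounded library. They are 10 of the 26 claudin and occludin genes that both libraries list. The anorectal junction is where the stratified epithelium of the anal canal meets the simple, glandular epithelium of the rectum, with a transition zone between them. One library was made from normal mice and 1 from mice taken 1 week after a wound made with hot EDTA and then an electric brush. All animals were K17CreERT2;R26RGFP mice on the C57/BL6J background, in which the Krt17 promoter drives a tamoxifen-dependent Cre that switches on a fluorescent reporter, and all received 2 injections of tamoxifen. Each library pools mice of both sexes, so that differences between animals cannot be seen. Live cells were sorted by flow cytometry for EpCam and against markers of leukocytes, endothelium and fibroblasts before 10x 3′ sequencing.

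Tight junctions seal the space between neighbouring epithelial cells. Each claudin strand is built from family members with different properties: some, such as claudin-1, tighten the barrier, while others, such as claudin-2 and claudin-15, form pores for cations and water. In the gut, claudin-3, claudin-4, claudin-7 and claudin-8 are known as barrier-forming members, and in the epidermis claudin-1 is required for the water barrier. Occludin is a MARVEL-family protein of the same strand.

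The submitters named 4 clusters in the normal library (Anal Canal, 432 cells; Basal, 257; Suprabasal, 187; Rectum, 63) and 6 in the wounded library (Suprabasal, 1032 cells; Regeneration, 991; Wound_Stress, 838; Basal, 573; Rectum, 397; Hybrid, 316). The normal Basal and Suprabasal clusters are those of the transition zone. A level is given below in CPM, the gene's unique molecular identifiers (UMIs) as a share of all UMIs of the cluster, scaled to a total of 1000000. Since there is 1 library in each condition, no comparison could be tested. Every interval is a 95% interval that covers counting error only, and not the spread between animals or libraries. Groups of cells that are called higher or lower differed by 2-fold or more on a gene with at least 20 UMIs in both groups together, and beside the counts stands the share of all such genes that passed the same fold.

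The names were checked against marker genes. The keratin Krt8 of simple epithelium stood at 2741 CPM in normal Rectum and 2386 CPM in wounded Rectum, and at 430 CPM or less in the other 8 clusters. A pair of clusters held markers in part at odds with their names. The wounded cluster named Basal carried Krt10, a keratin of differentiated stratified cells, at 1987 CPM. Normal Basal held 48.4 CPM of it and normal Anal Canal 2228 CPM. Wounded Basal also held 12796.5 CPM of the 5 stratified basal markers, against 7801 CPM in wounded Suprabasal and 10632 CPM in normal Basal. The wounded cluster named Hybrid held 19072 CPM of the 6 enteroendocrine markers (Chga, Chgb, Pcsk1n, Scg3, Pyy and Neurod1), against 5436 CPM of the 4 transition zone markers, 3159 CPM of the 5 stratified basal markers and 1414 CPM of the 7 rectum markers, and its median cell had 2390 UMIs. Both are called by their deposited names below. Regeneration and Wound_Stress, names that give no cell type, held 2928 and 1771 CPM of the 9 anal gland (sebaceous) markers, against 252 CPM in wounded Basal and 438 CPM in wounded Suprabasal. Other clusters also held markers that their names do not give. Hair follicle markers summed to 6347 CPM in normal and 3756 CPM in wounded Suprabasal, against 559 CPM in normal Basal. Normal Basal held 955 CPM of the enteroendocrine markers, against 1.37 CPM in Anal Canal. It held 10632 CPM of the stratified basal markers, against 18581 CPM in Anal Canal. The part of these markers in the results below was not tested. The median cell of the 9 clusters other than Hybrid had between 8437.5 and 12616 UMIs, and no filter-passing barcode occurred in both libraries.

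RNA of rectal claudins was also found where it should be absent, which bears on the low values below. Among cells without a deposited name, a fibroblast-like cluster of the wounded library (141 cells, all 6 fibroblast markers detected, median 7936 UMIs) held Cldn3 at 20.8 CPM and Cldn7 at 24.1 CPM. The fibroblast-like cluster of the normal library (36 cells, median 6365 UMIs) held 0 UMIs of either, which allows up to 13.9 CPM. Wounded clusters led by Rgs5 and Ebf1 (71 cells) and by Cd74 and Apod (65 cells) held Cldn7 at 29.7 and 36.4 CPM. The latter also detected all 6 fibroblast markers, at 32052 CPM in sum against 21034 CPM in the fibroblast-like cluster, and had none of them among its 10 leading genes. Cldn4 held 2 UMIs in the wounded fibroblast-like cells. In the wounded barcodes that failed the filters, most of them rich in mitochondrial RNA, Cldn3 stood at 183 CPM and Cldn7 at 238 CPM. These barcodes also held the rectal genes Krt8 and Lgals4 at 653 and 1156 CPM, and whether they are damaged rectal cells was not tested. In the wounded library, levels of Cldn3 and Cldn7 at or below those of the fibroblast-like cluster may therefore be background, and no direction is read within them. Levels of Cldn7 from there up to the 36.4 CPM of the Cd74 and Apod cluster may be background as well. Whether they are background was not tested.

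Cldn3 and Cldn4 are neighbours. In GRCm38 (mm10, GENCODE M21), Cldn4 lies on chromosome 5 from 134945119 to 134946934 on the minus strand and Cldn3 from 134986214 to 134987472 on the plus strand, with 39.3 kb between them. Cldn15 lies 1979 kb further on the same chromosome, from 136966616 to 136975858 on the plus strand. Cldn7 lies on chromosome 11 from 69964779 to 69967885 on the plus strand, and Cldn1 on chromosome 16 from 26356642 to 26371841 on the minus strand. RefSeq promoters of GRCm38.p6, from 250 bases before to 50 bases after a start, were found for 8 of the 10 genes, 12 promoters in all. Those of Cldn3, Cldn4, Cldn7 and Cldn1 are shown, which are among the genes that differed between Rectum and the stratified clusters of the normal library. The first is at chr5:134985964-134986263, plus strand, the second at chr5:134946885-134947184, minus strand, the third at chr11:69965171-69965470, plus strand, and the last at chr16:26371790-26372089, minus strand. Capitals mark CAGGTG on either strand, the E-box that Snail-family repressors are known to bind. Cldn7 has another promoter, at chr11:69964529-69964828, which holds no CAGGTG and is not shown.
Cldn3: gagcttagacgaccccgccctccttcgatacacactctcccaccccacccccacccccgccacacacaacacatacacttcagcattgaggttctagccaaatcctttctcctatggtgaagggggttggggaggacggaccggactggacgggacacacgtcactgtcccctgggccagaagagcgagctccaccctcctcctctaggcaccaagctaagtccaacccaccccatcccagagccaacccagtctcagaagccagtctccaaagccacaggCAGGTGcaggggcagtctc
Cldn4: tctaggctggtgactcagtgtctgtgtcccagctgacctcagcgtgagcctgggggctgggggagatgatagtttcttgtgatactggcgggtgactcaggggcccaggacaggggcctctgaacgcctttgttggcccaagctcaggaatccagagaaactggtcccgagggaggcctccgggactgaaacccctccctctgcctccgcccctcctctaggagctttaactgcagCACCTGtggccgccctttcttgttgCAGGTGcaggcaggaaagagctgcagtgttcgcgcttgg
Cldn7: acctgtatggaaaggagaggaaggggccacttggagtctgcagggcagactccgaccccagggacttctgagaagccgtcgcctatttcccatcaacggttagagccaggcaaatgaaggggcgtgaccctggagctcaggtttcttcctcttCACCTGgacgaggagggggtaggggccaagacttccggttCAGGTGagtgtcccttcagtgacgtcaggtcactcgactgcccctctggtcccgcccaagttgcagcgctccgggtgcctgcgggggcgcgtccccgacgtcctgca
Cldn1: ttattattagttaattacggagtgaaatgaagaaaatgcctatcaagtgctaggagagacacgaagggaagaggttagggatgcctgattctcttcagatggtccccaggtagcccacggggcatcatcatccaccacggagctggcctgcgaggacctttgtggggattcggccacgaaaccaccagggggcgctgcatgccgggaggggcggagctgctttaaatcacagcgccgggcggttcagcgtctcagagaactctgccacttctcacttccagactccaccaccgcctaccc
CAGGTG was in 5 of the 12 promoters (1 of Cldn3, 1 of Cldn4, 1 of 2 of Cldn7 and both of Ocln) and in 20.2% of all 32851 promoters on the main chromosomes. The Ocln windows overlap and share a CAGGTG, and the Cldn12 windows overlap as well, so the 12 are not independent. The letters AACNGGTT (Grainyhead-like), TTTATNG (Cdx) and CAAAGTNCA (Hnf4) were in 0 of the 12, and in 2.09%, 10.9% and 1.41% of all promoters. No motif overlapped another. These matches describe the letters in the window only.

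Cldn7 and Cldn3, both barrier-forming claudins, were highest in the Rectum clusters, as the plot of levels by cluster shows. In normal Rectum, Cldn7 stood at 922 CPM (95% interval 852 to 995) and Cldn3 at 454 CPM (406 to 507). In wounded Rectum, Cldn7 stood at 844 CPM (816 to 873) and Cldn3 at 609.7 CPM (586 to 634). No other cluster reached 200 CPM of either gene: the next was Hybrid, with Cldn7 at 183 CPM and Cldn3 at 82.9 CPM. When each cell was thinned to 2000 UMIs, Cldn7 was detected in 78.3% of 60 normal Rectum cells and 76.3% of 354 wounded ones (98.4% and 88.4% unthinned), and Cldn3 in 46.7% and 60.7% (82.5% and 85.4% unthinned). The thinned share in wounded fibroblast-like cells was 4.38% for both genes. Thinning left out 3 and 43 Rectum cells and 4 of the fibroblast-like cells as too shallow.

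**Figure D1:**
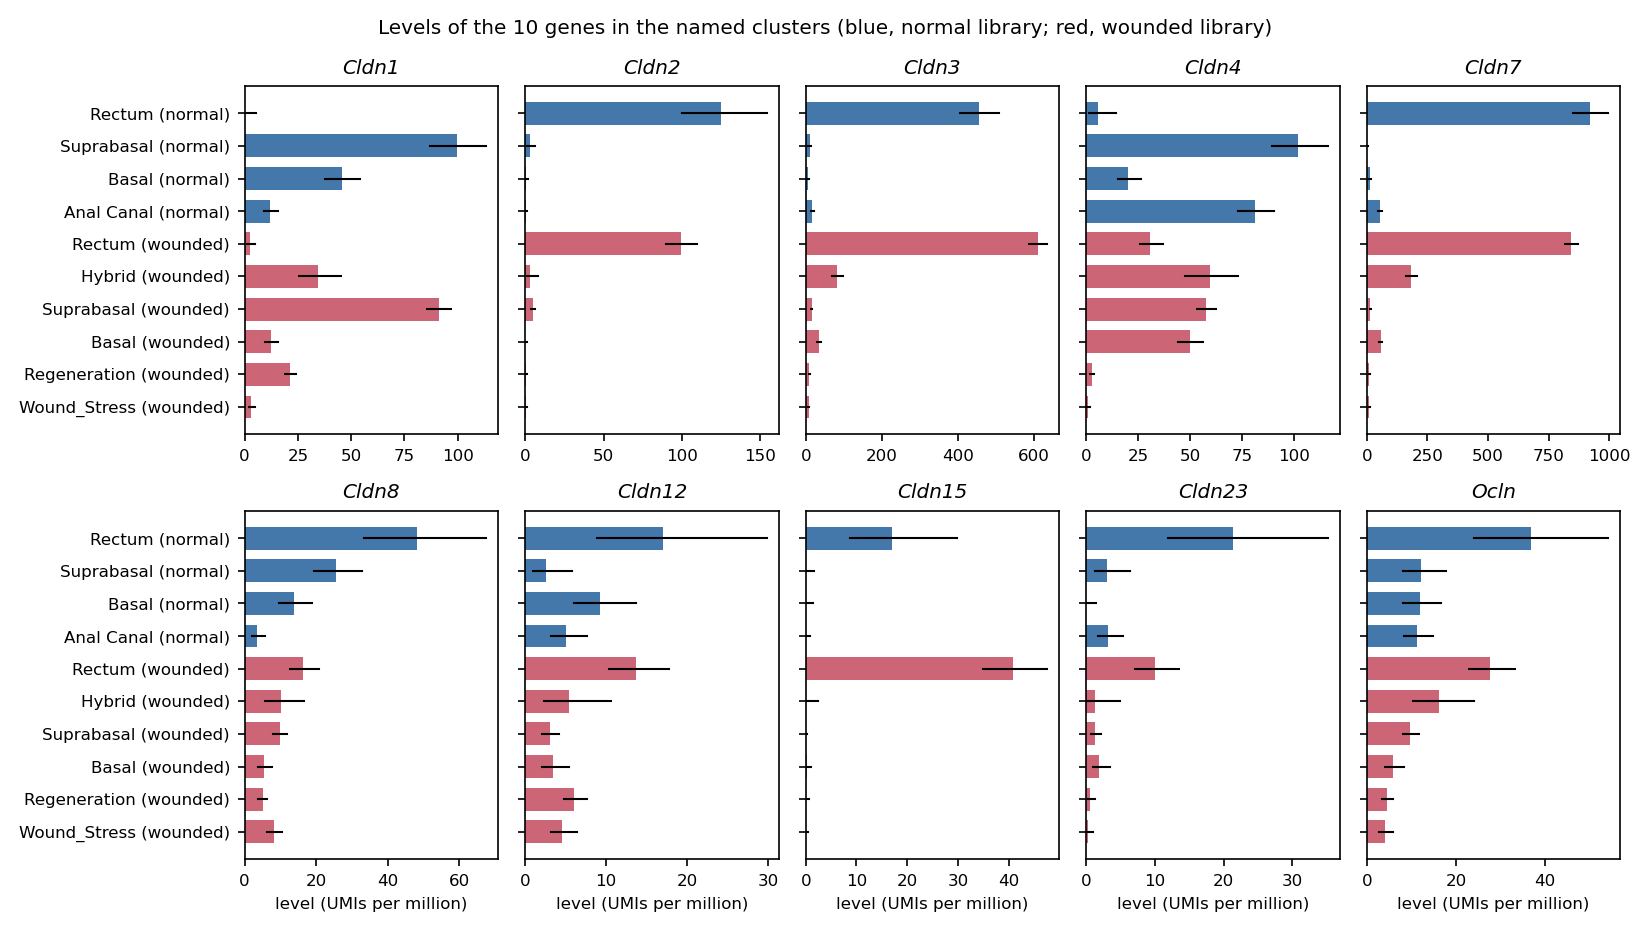
Levels of the 10 genes in the 4 named clusters of the normal library (blue) and the 6 of the wounded library (red), in CPM (counts per 1000000 UMIs) on a scale of its own for each gene; bars start at 0 and lines are 95% Poisson intervals for counting error. Cldn7, Cldn3, Cldn2 and Cldn15 are highest in the Rectum clusters, and Cldn1 is highest in the Suprabasal clusters, with 99.5 CPM in normal and 91.1 CPM in wounded cells.

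Cldn2, the cation and water pore of leaky epithelia, stood at 125 CPM (100.2 to 154) in normal Rectum and 99.5 CPM (90.1 to 110) in wounded Rectum. The next level was 5.01 CPM in wounded Suprabasal, where 48 of 1032 cells held a UMI and none of them more than 3. Cldn15, the second pore-forming member of the intestine, was detected in 8 of 63 normal Rectum cells (17.0 CPM, 8.81 to 29.8) and 106 of 397 wounded ones (40.9 CPM, 34.9 to 47.5). Its UMIs summed to 0 in the 3 normal stratified clusters and to 3 in the 4 wounded ones. Cldn23 stood at 21.3 CPM in normal Rectum (11.9 to 35.1) and 9.97 CPM in wounded Rectum (7.16 to 13.5), and at 3.2 CPM or less in the other 8 clusters.

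Ocln and Cldn12, a claudin without the usual scaffold-binding end, were spread more evenly. Ocln stood at 36.9 CPM in normal Rectum (24.1 to 54.1), 27.7 CPM in wounded Rectum (22.9 to 33.3) and 16.2 CPM in Hybrid (10.4 to 24.1). In the 3 normal stratified clusters it lay between 11.2 and 12.3 CPM, with intervals that overlapped throughout, and in the 4 wounded ones between 4.15 and 9.76 CPM. Cldn12 was highest in normal Rectum at 17.0 CPM (8.81 to 29.8) and wounded Rectum at 13.6 CPM (10.3 to 17.7), and lowest in normal Suprabasal at 2.63 CPM (0.965 to 5.72). Cldn8, which is known from the distal colon and the kidney, also led in normal Rectum at 48.3 CPM (33.4 to 67.5), followed by normal Suprabasal at 25.4 CPM (19.3 to 32.8) and wounded Rectum at 16.3 CPM (12.6 to 20.7). The upper end of wounded Rectum overlapped the lower end of normal Suprabasal.

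Against the pooled stratified clusters of its own library, 7 of 9 counted members were higher in normal Rectum and 2 were lower, where 17.5% and 14.9% of 11406 genes passed. In wounded Rectum 8 of 10 were higher and 1 was lower, where 18.4% and 15.7% of 14012 genes passed. Of the 16 other claudins, 0 had enough UMIs to be counted in the normal and 2 in the wounded comparison, both higher. Cldn3 was 38.7-fold higher in normal and 41.1-fold higher in wounded Rectum, and Cldn7 was 31.4-fold and 44.9-fold higher. The wounded stratified pool held Cldn3 at 14.8 CPM and Cldn7 at 18.8 CPM, both below the wounded fibroblast-like cells. The part of background in the size of the wounded ratios was not tested. Cldn2 was 130-fold higher in normal Rectum, against 9 UMIs in 876 stratified cells, and 53.7-fold higher in wounded Rectum. The ratio of Ocln was 1.67 on the log2 scale in normal (0.99 to 2.29) and 2.14 in wounded cells (1.81 to 2.47). Cldn1 went the other way. It was at 0 UMIs in 63 normal Rectum cells, which makes it at least 10.1-fold lower than in the stratified clusters, with 3 UMIs set in place of 0 over the cluster. In wounded Rectum it was 14.1-fold lower, with 11 UMIs in 8 cells.

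**Figure D2:**
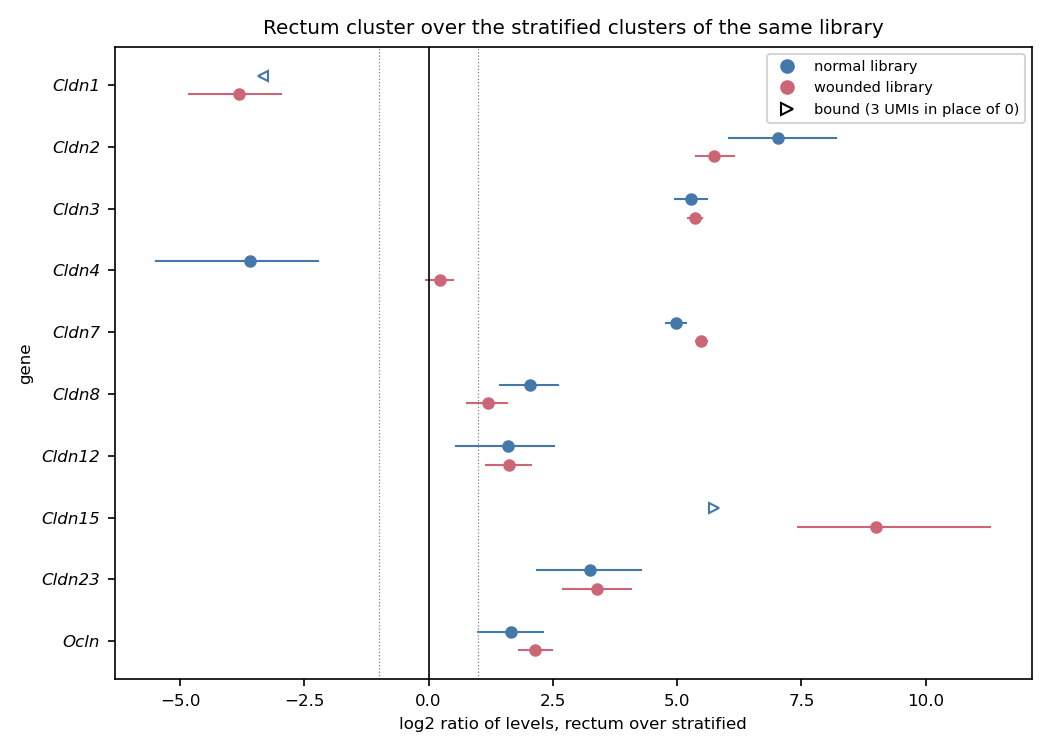
Log2 ratio of each gene's level in Rectum over the stratified clusters of the same library, normal in blue and wounded in red, with exact 95% binomial intervals for counting error. Dotted lines mark 2-fold, open triangles are bounds with 3 UMIs in place of 0, and Cldn4 is the gene for which the libraries stand farthest apart on either side of 0, at -3.60 and 0.23.

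Of the 10 genes, Cldn4 had the widest gap between the log2 ratios of the libraries in the plot of Rectum over stratified clusters. In normal Rectum 2 of 63 cells held 4 UMIs in all (5.68 CPM, 1.55 to 14.5), and the gene was 12.1-fold lower than in the stratified clusters. In wounded Rectum 73 of 397 cells held 127 UMIs (30.9 CPM, 25.8 to 36.8), and the log2 ratio to the stratified clusters was 0.23 (-0.05 to 0.50). The cell with the most Cldn4 held 9.45% of these UMIs. The stratified pools were unlike: Cldn4 stood at 68.7 CPM in the normal and 26.4 CPM in the wounded pool. The wounded pool joined Regeneration and Wound_Stress, at 2.10 CPM together, with Basal and Suprabasal, at 55.1 CPM together. The part of the pools in the gap was not tested. The wounded fibroblast-like cells held Cldn4 at 1.66 CPM, in 1 cell, and the wounded barcodes that failed the filters at 18.7 CPM. Set against normal Rectum directly, Cldn4 was higher in wounded Rectum by 2.44 on the log2 scale (1.05 to 4.34), and Cldn15 was higher by 1.26 (0.42 to 2.24). Cldn8 was lower at -1.57 (-2.18 to -0.93), and so was Cldn23 at -1.09 (-1.98 to -0.13). These were 2 higher and 2 lower of 9 counted members, where 11.6% and 6.41% of 10197 genes passed. With mean CPM per cell, Cldn15 (0.88) and Cldn23 (-0.62) were within 2-fold and Cldn4 was at 3.37. Markers of other cells were also higher in wounded than in normal Rectum: those of goblet cells summed to 13392 against 6217 CPM, of the transition zone to 1079 against 259.9 CPM, of differentiated stratified cells to 461 against 99.4 CPM, of stratified basal cells to 559 against 214 CPM and of fibroblasts to 242 against 1.42 CPM. Their part in the Cldn4 and Cldn15 differences was not tested. The other 5 counted members were within 2-fold: Cldn7 at -0.13 (-0.25 to -0.00), Cldn3 at 0.42 (0.26 to 0.60), Cldn2 at -0.33, Cldn12 at -0.32 and Ocln at -0.41, the last 3 with intervals that held 0. Condition and library cannot be told apart here.

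The Rectum cells were not alike among themselves, since some are mucus-secreting goblet cells. They were ranked by their share of UMIs in Muc2, Fcgbp, Clca1, Zg16, Spink4 and Tff3 and cut into 3 equal parts (terciles), and the highest was set against the lowest. In the wounded library (132 against 132 cells), Cldn15 stood at 77.9 CPM in goblet-rich and 19.0 CPM in goblet-poor cells, a log2 ratio of 2.04 (1.47 to 2.65). It was the only one of 9 counted members past 2-fold, where 7.2% of 9392 genes passed upward and 9.09% downward. Cldn7 stood at 692 CPM in goblet-rich and 939.8 CPM in goblet-poor cells (-0.44, -0.55 to -0.33), and Ocln at 20.9 and 36.1 CPM (-0.79, -1.45 to -0.16). In the normal library each tercile held 21 cells. Of 3 counted members, 1 was higher, where 6.01% of 2910 genes passed upward and 11.6% downward. It was Cldn2, at 1.04, against -0.44 in the wounded library. Cldn15 had 7 UMIs in the goblet-rich and 0 in the goblet-poor tercile, too few to be counted. Cldn7 stood at 722 and 976 CPM.

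In the stratified epithelium Cldn1, the barrier claudin of the epidermis, was highest in Suprabasal. It stood at 99.5 CPM in normal Suprabasal (86.9 to 113), 45.5 CPM in normal Basal (37.8 to 54.3) and 12.1 CPM in Anal Canal (9.06 to 15.8). In the wounded library it stood at 91.1 CPM in Suprabasal (85.6 to 96.7), 21.2 CPM in Regeneration (18.8 to 23.9), 12.4 CPM in Basal (9.66 to 15.6) and 3.08 CPM in Wound_Stress (1.95 to 4.63). After thinning it was detected in 19.7% of normal and 13.8% of wounded Suprabasal cells (61.0% and 45.6% unthinned), against 2.92% of wounded fibroblast-like cells. Krt17, the keratin whose promoter drives the Cre in these mice, had the pattern over the 10 clusters closest to that of Cldn1 among 4216 genes, with a Pearson r of 0.984.

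Over Basal, Suprabasal held more Cldn1 and Cldn4 in the normal library and more Cldn1 and Cldn2 in the wounded one. In the normal library 2 of 7 counted members were higher (Cldn1, 1.13, 0.81 to 1.46; Cldn4, 2.33, 1.90 to 2.78) and 2 were lower (Cldn7, -3.17, -5.52 to -1.49; Cldn12, -1.81, -3.39 to -0.49), where 6.57% and 17.1% of 9682 genes passed. The median of all genes was -0.29, and with that shift taken out, by median-of-ratios scaling, 4 members were higher and 2 lower, where 9.77% and 10.6% of all genes passed. Normal Suprabasal held Cldn7 in 1 cell alone, with 3 UMIs. Of the Cldn4 UMIs of normal Basal, 30.9% came from 1 cell, and without the cell richest in Cldn4 in each cluster the ratio of Cldn4 was 2.70. In the wounded library 2 of 9 were higher (Cldn1, 2.88, 2.53 to 3.25; Cldn2, 4.85, 2.31 to 10.17, against 1 UMI) and 2 were lower (Cldn3, -1.19, -1.49 to -0.90; Cldn7, -2.05, -2.33 to -1.77), where 9.85% and 11.3% of 12291 genes passed. Wounded Suprabasal held Cldn3 at 15.4 CPM and Cldn7 at 13.8 CPM, both below the fibroblast-like cells. Cldn4, higher in normal Suprabasal, differed by 0.21 (0.01 to 0.42) in the wounded library and by -0.52 there with mean CPM per cell, where Basal is the cluster with Krt10.

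Anal Canal was set against the Basal and Suprabasal clusters of the transition zone in the normal library. Cldn7 was higher in Anal Canal by 2.96 on the log2 scale (2.45 to 3.52), Cldn3 by 1.11 (0.52 to 1.72) and Cldn23 by 1.19 (-0.22 to 2.74). Cldn1 was lower at -2.54 (-2.98 to -2.12) and Cldn8 at -2.48 (-3.37 to -1.68). These were 3 higher and 2 lower of 8 counted members, where 8.87% and 9.97% of 11036 genes passed. Cldn23 rests on 14 and 7 UMIs, and 2 members were higher and 2 lower under median-of-ratios scaling, where 7.48% and 11.3% of all genes passed.

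The wounded cluster named Basal was compared with both normal clusters. Against normal Basal, Cldn3 was higher by 2.67 (1.91 to 3.53), Cldn7 by 2.28 (1.75 to 2.85) and Cldn4 by 1.29 (0.87 to 1.74), while Cldn1 (-1.88, -2.32 to -1.45), Cldn12 (-1.41, -2.33 to -0.50) and Cldn8 (-1.34, -2.08 to -0.61) were lower. That is 3 higher and 3 lower of 7 counted members, where 15.6% and 13.6% of 11035 genes passed. Against normal Anal Canal, a comparison added after the Krt10 levels were seen, Cldn3 alone of 8 counted members was past 2-fold (1.10, 0.70 to 1.51), where 10.2% of 11087 genes passed upward and 7.02% downward. Cldn7 stood at 57.3 CPM in wounded Basal and 54.8 CPM in Anal Canal (0.07, -0.18 to 0.31), and Cldn1 at 12.4 and 12.1 CPM (0.03, -0.50 to 0.57). Cldn3 stood at 35.2 CPM in wounded Basal, 16.4 CPM in Anal Canal and 5.55 CPM in normal Basal. Background of the kind possible in the wounded fibroblast-like cells was not taken off. Its part in the Cldn3 and Cldn7 differences of wounded Basal was not tested. In Suprabasal, wounded over normal, Cldn7 was higher by 3.39 (1.82 to 5.69), and Cldn8 (-1.38, -1.85 to -0.90) and Cldn23 (-1.24, -2.62 to 0.29) were lower, 1 and 2 of 9 counted members where 16.2% and 5.63% of 11430 genes passed. The 13.8 CPM of Cldn7 in wounded Suprabasal was below the 24.1 CPM of the fibroblast-like cells, so no change of Cldn7 is read from it.

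**Figure D3:**
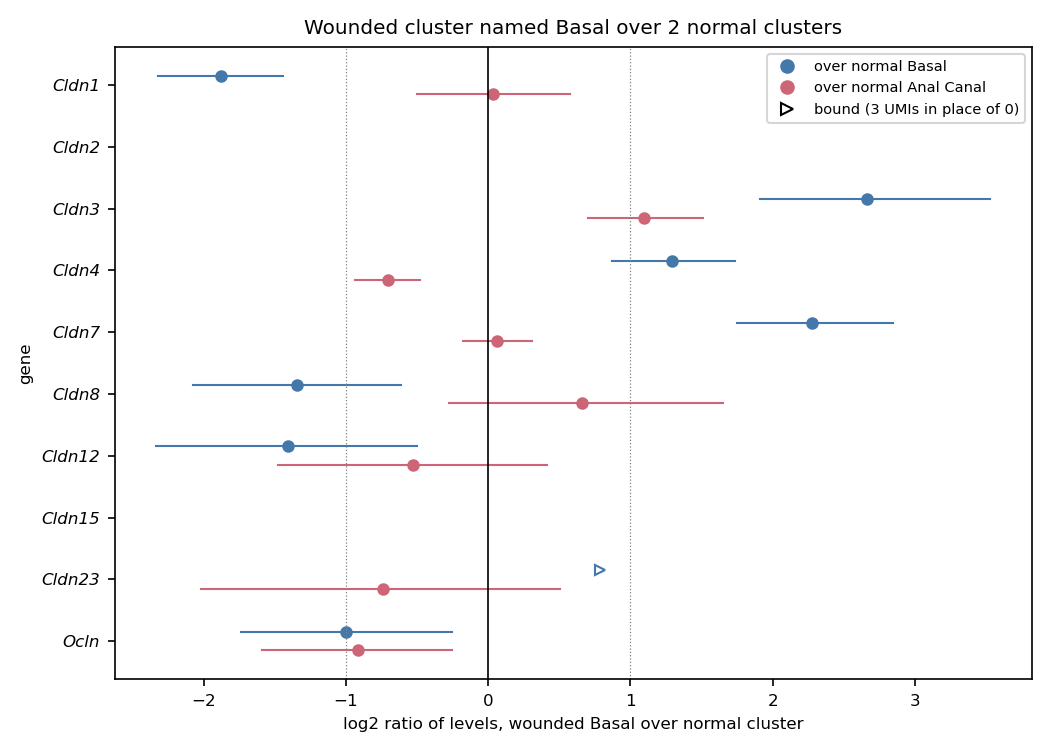
Log2 ratio of each gene's level in the wounded cluster named Basal over normal Basal (blue) and over normal Anal Canal (red), with exact 95% binomial intervals for counting error. Cldn1, Cldn3, Cldn4 and Cldn7 lie away from 0 over normal Basal, Cldn1 and Cldn7 lie at 0.03 and 0.07 over Anal Canal, and Cldn2 and Cldn15, with 1 UMI or fewer in each cluster, are not drawn.

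Cells of a cluster differ in how far they have differentiated, so 3 clusters were split into terciles by the share of UMIs in Krt1, Krt10, Krtdap, Sbsn and Lor. In normal Anal Canal (144 cells a tercile), Cldn4 stood at 145 CPM in the lowest, 86.8 CPM in the middle and 38.9 CPM in the highest tercile. Cldn7 went from 93.2 to 64.9 and 22.9 CPM, and Cldn3 from 50.5 to 9.99 and 2.29 CPM. Highest over lowest, all 3 were lower (Cldn4, -1.90, -2.33 to -1.47; Cldn7, -2.03, -2.60 to -1.48; Cldn3, -4.46, -6.39 to -3.02) and none of 5 counted members was higher, where 9.46% and 3.86% of 8196 genes passed. The terciles of wounded Basal (191 cells each), added after the Krt10 levels were seen, ran the same way. Krt10, 1 of the ranking genes, stood at 41.3, 79.1 and 4800 CPM from the lowest to the highest. Cldn4 stood at 138 CPM in the lowest and 17.6 CPM in the highest tercile, Cldn7 at 134 and 24.0 CPM, and Cldn3 at 99.7 and 7.29 CPM. Here 3 of 6 were lower and 1 higher (Cldn8, 1.39, -0.25 to 3.43), where 14.3% and 3.68% of 9347 genes passed.

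Wounded Suprabasal (344 cells a tercile) went the other way. Cldn4 stood at 6.02 CPM in the lowest, 20.1 CPM in the middle and 109 CPM in the highest tercile (4.18, 3.48 to 4.96), and Cldn1 at 52.4, 74.9 and 122 CPM (1.21, 0.96 to 1.48). Of 8 counted members 4 were higher, with Cldn2 (1.43, 0.32 to 2.74) and Cldn8 (1.01, 0.19 to 1.90), and 1 was lower (Cldn12, -1.17, -2.47 to 0.11), where 6.81% and 23.8% of 10623 genes passed. The median of all genes was -0.42, and under median-of-ratios scaling 5 were higher and 0 lower, where 11.9% and 13.6% of all genes passed. Other markers moved with the ranking as well. The transition zone markers summed to 3656 CPM in the lowest and 120314 CPM in the highest tercile. Krt17, 1 of these 4, went from 2022 to 11300 CPM. The hair follicle markers went from 723 to 6131 CPM in sum. In this cluster the ranking drew little on Krt10, which stood at 165 CPM in the highest tercile, against 5449 CPM in that of Anal Canal. Depth moved with the ranking: the median cell of the highest tercile held 15348.5 UMIs in wounded Suprabasal and 11196 in Anal Canal, against 7737 and 6009 in the lowest. Markers of the rectum list, which holds Krt19 and Krt20, summed to 837 CPM in the lowest and 156 CPM in the highest tercile of Anal Canal, and to 851 and 155 CPM in wounded Basal. Krt8 went the same way, from 86.4 to 5.62 and 7.43 CPM in Anal Canal and from 40.0 to 27.1 and 19.7 CPM in wounded Basal, with 2386 CPM or more in the Rectum clusters. The part of these markers and of depth in the results was not tested.

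**Figure D4:**
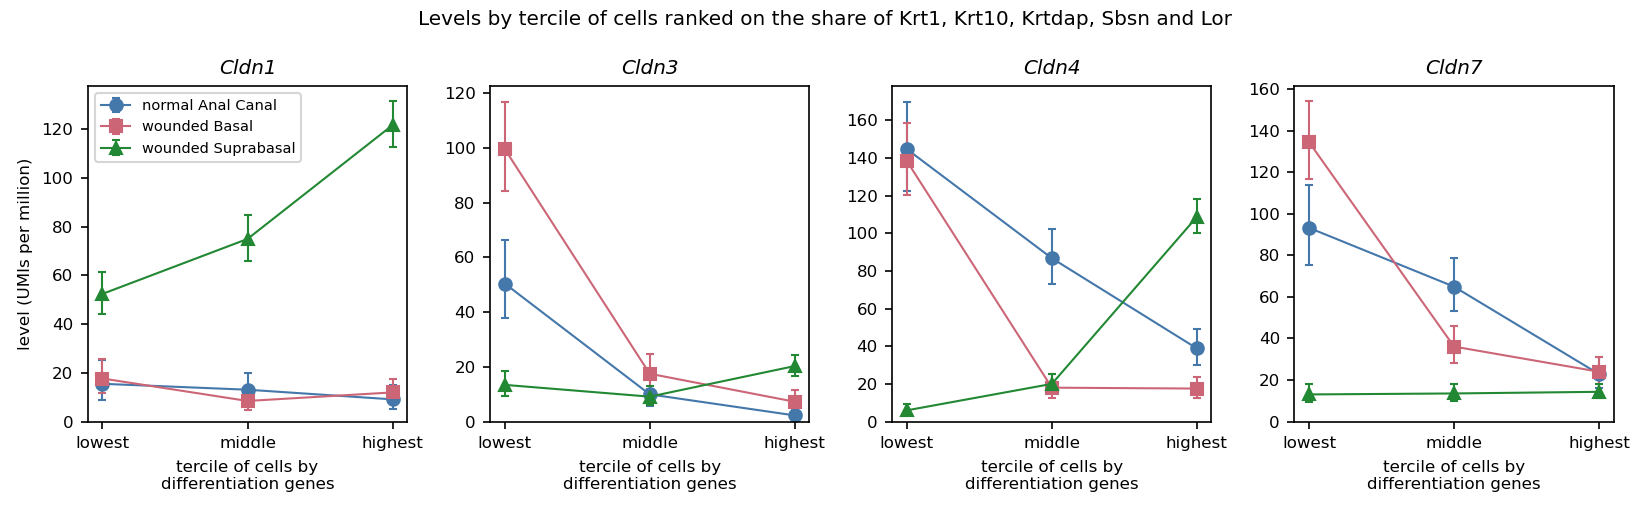
Levels of Cldn1, Cldn3, Cldn4 and Cldn7, in CPM (counts per 1000000 UMIs), in the lowest, middle and highest tercile of cells ranked by differentiation genes, for normal Anal Canal (blue circles), wounded Basal (red squares) and wounded Suprabasal (green triangles), with 95% Poisson intervals for counting error. Cldn4 goes from 145 to 38.9 CPM in Anal Canal, from 138 to 17.6 CPM in wounded Basal, and from 6.02 to 109 CPM in wounded Suprabasal.

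The cells that carried Cldn4 were looked at directly, as a description chosen after the values were seen. In Anal Canal 34 of 432 cells held at least 3 UMIs of Cldn4, and 336 held 0. The 3 genes that differed most between these sets were Ppbp (3235 against 2.23 CPM), Psca (4412 against 3.81 CPM) and Arg1 (834 against 1.27 CPM), and Krt13, a keratin of mucosal stratified epithelium, stood at 3725 against 246 CPM. In wounded Basal 28 of 573 cells held at least 3 UMIs. Crct1 (758 against 0.61 CPM), Ppbp (11009 against 24.2 CPM) and Srgn (633 against 1.42 CPM) differed most from the 502 cells with 0. Psca stood at 21187 against 91.8 CPM, Krt13 at 8666 against 718 CPM and Cst6, a protease inhibitor, at 7291 against 133 CPM. In the Suprabasal clusters other genes led: Klk10, Klk14 and Klk12, kallikrein proteases, in 26 of 187 normal cells, and Cdsn, 2300002M23Rik and Klk14 in 82 of 1032 wounded cells. Krt13 stood at 2.16 CPM in the former and 1.3 CPM in the latter. Cst6 stood at 178011 and 163865 CPM, against 35035 and 21211 CPM in the cells with 0. Arg1 was among the 10 genes that differed most in each of these clusters.

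The cells that held Cldn4 also held other members, in a mix that varied by cluster. In Anal Canal, 55 of the 96 cells with Cldn4 also held Cldn7, which is 57.3% of the Cldn4 cells and 67.9% of the 81 Cldn7 cells, and in wounded Basal 44 of 71 did (62.0%, and 38.6% of the 114 Cldn7 cells). In wounded Suprabasal 29 of 206 did (14.1%, and 31.9% of the 91 Cldn7 cells), and in normal Suprabasal 0 of 69. Of the Suprabasal cells with Cldn4, many held Cldn1: 51 of 69 in the normal library (73.9%, and 44.7% of the 114 Cldn1 cells) and 162 of 206 in the wounded library (78.6%, and 34.4% of the 471 Cldn1 cells). Cldn3 was seen beside Cldn4 in both kinds of cluster, in 13 of the 14 Cldn3 cells of normal Suprabasal, 15 of the 21 of Anal Canal, 29 of the 62 of wounded Basal (46.8%) and 45 of the 103 of wounded Suprabasal (43.7%). In wounded Suprabasal as a whole, Cldn3 and Cldn7 lay below the fibroblast-like cells. In its 82 cells with at least 3 UMIs of Cldn4 they stood at 44.2 and 32.5 CPM, against 10.3 and 11.3 CPM in those with 0. The 32.5 CPM of Cldn7 was still below the unnamed wounded cluster led by Cd74 and Apod. Whether these levels are background was not tested, and the overlap with Cldn4 there is given as a count only. The Cldn4-rich cells were also the deeper ones, with a median of 12738 UMIs against 7546 in Anal Canal and 18283 against 9269 in wounded Suprabasal, and a deeper cell shows more genes.

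Regeneration and Wound_Stress, which have no namesake among the normal clusters, held less of the members in sum than the other named clusters. Their 10 levels summed to 61.7 and 39.4 CPM, against 118 to 259 CPM in the 3 normal stratified clusters, 172 CPM in wounded Basal and 207 CPM in wounded Suprabasal. Set against wounded Basal and Suprabasal, 6 of 9 counted members were lower and 0 higher, where 12.8% and 8.43% of 13485 genes passed. Cldn4 differed most, at 2.77 CPM in Regeneration and 0.938 CPM in Wound_Stress (-4.71, -5.19 to -4.27). Cldn1 was lower at -2.15 (-2.34 to -1.97), and Cldn2, Cldn23, Cldn7 and Cldn3 lay between -2.66 and -1.31. For Cldn1 and Cldn2 the compared pool was led by Suprabasal. Cldn1 stood at 91.1 CPM there and 12.4 CPM in Basal, and Cldn2 at 5.01 and 0.174 CPM. Regeneration held more Cldn1 than wounded Basal. Cldn8 (-0.43, -0.79 to -0.08), Cldn12 (0.80, 0.32 to 1.29) and Ocln (-0.95, -1.34 to -0.56) were within 2-fold. Cldn3 (9.61 and 7.51 CPM) and Cldn7 (11.2 and 10.3 CPM) in these clusters were below the fibroblast-like cells. Other markers differed with the members: beside the sebaceous markers given above, those of the transition zone summed to 1348 CPM in Regeneration and 386 CPM in Wound_Stress, against 1663 CPM in wounded Basal and 61450 CPM in wounded Suprabasal. Their part in the lower levels was not tested. The unnamed wounded cells with the most RNA of the sebaceous markers held 64.5 CPM of the members in sum, and the normal ones 83.0 CPM. Unnamed wounded clusters led by S100a8 and Gsta3 and by Gadd45g and Plin2, also rich in these markers, held 36.5 and 39.4 CPM.

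Hybrid stood between the rectal and the stratified clusters for several members. Cldn7 was at 183 CPM (162 to 206), 3.28 above the stratified clusters on the log2 scale (3.07 to 3.48) and -2.21 against Rectum (-2.39 to -2.03). Cldn3 was at 82.9 CPM (68.9 to 99.0), with 2.48 and -2.88. Cldn1 was at 34.4 CPM (25.6 to 45.2), 3.68 above Rectum (2.73 to 4.77) and -0.13 against the stratified clusters (-0.56 to 0.27). Cldn2 held 5 UMIs in 4 of 316 cells and Cldn15 held 0, which makes Cldn15 at least 20.2-fold lower than in wounded Rectum. Over Rectum 1 of 10 counted members was higher and 6 were lower, where 13.4% and 13.9% of 11114 genes passed. Over the stratified clusters 4 of 9 were higher (Cldn3, Cldn4, Cldn7 and Ocln) and 0 lower, where 19.2% and 6.62% of 13776 genes passed. The median of all genes in that comparison was 0.29, and 3 members were higher and 0 lower once it was taken out, where 14.1% and 10.1% of all genes passed. The stratified pool includes Regeneration and Wound_Stress. In wounded Basal and Suprabasal alone, Cldn4 stood at 55.1, Ocln at 8.49, Cldn1 at 65.0, Cldn7 at 28.2 and Cldn3 at 21.9 CPM. Hybrid held them at 59.3, 16.2, 34.4, 183 and 82.9 CPM. Its cells were shallow, and 132 of 316 had fewer than 2000 UMIs. The median Hybrid cell held 2390 UMIs, against 7936 in the fibroblast-like cells that set the limit for reading Cldn3 and Cldn7. Hybrid held the rectal genes Krt8 and Lgals4 at 430 and 481 CPM, against 2386 and 3755 CPM in wounded Rectum. Its Cldn7 and Cldn3 lay below the 238 and 183 CPM of the wounded barcodes that failed the filters. The part of background or of mixed cells in the Hybrid levels was not tested. Of the 16 other claudins, 2 reached 20 UMIs in this comparison, and both were higher in Hybrid: Cldn14 at 149.7 CPM, in 17 cells, against 12.2 CPM in wounded Rectum, and Cldn10 at 43.8 CPM, in 23 cells, against 2.19 CPM.

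The other genes of the junction were followed as lists. In normal Rectum over the stratified clusters, 10 of 18 scaffold genes were higher and 2 lower, with a median log2 ratio of 1.22 against 0.10 for all genes, of which 17.5% were higher and 14.9% lower. In wounded Rectum 8 were higher and 3 lower, with a median of 0.78 against 0.10 for all genes, of which 18.4% were higher and 15.7% lower. Pard6g, a polarity adaptor, was lowest in both (4.26 against 84.4 CPM in normal, 4.62 against 52.8 CPM in wounded), and the highest were Cgnl1, paracingulin, in normal (18.5 against 1.71 CPM) and Prkcz, an atypical protein kinase C, in wounded cells (55.5 against 4.29 CPM). Of the other junction membrane proteins, 5 of 8 were higher and 0 lower in normal Rectum, and 6 of 9 were higher and 1 lower in wounded Rectum, with the same shares of all genes. Igsf5 led in both, at 29.8 against 0.534 CPM and 22.9 against 1.03 CPM.

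Epcam, whose protein binds claudin-7, was higher in Rectum. It stood at 1755 CPM in normal Rectum and 411 CPM in the stratified clusters, and at 1822 and 342 CPM in the wounded library. It belongs to a list of 6 claudin partners and matriptase-system genes, of which 5 were higher and 1 lower in Rectum in both libraries. Of all genes, 17.5% were higher and 14.9% lower in the normal library, and 18.4% and 15.7% in the wounded one. The cells were sorted on EpCam, so its level is not independent of the sort. Among 6 transcription factors, Hnf4a, a regulator of intestinal identity, was highest in Rectum (114 against 0.427 CPM in normal, 76.6 against 2.36 CPM in wounded), and Snai2, the Snail-family repressor, was lowest (0 against 21.9 CPM, and 2.43 against 24.3 CPM). In Suprabasal over Basal, Snai2 was also the lowest of its list, at 7.01 against 35.5 CPM in normal and 17.0 against 28.0 CPM in wounded cells. Within the terciles of Anal Canal it stood at 9.15 CPM in the differentiation-rich and 34.0 CPM in the differentiation-poor cells. In those of wounded Suprabasal it stood at 4.1 and 36.1 CPM. Any link between Snai2 and the members was not tested.

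The scaffolds were also counted in Suprabasal over Basal. In normal Suprabasal 4 of 14 were higher and 1 lower, with a median of -0.10 against -0.29 for all genes, of which 6.57% were higher and 17.1% lower. In wounded Suprabasal 0 of 18 were higher and 1 lower, with -0.09 against -0.14 for all genes, of which 9.85% were higher and 11.3% lower. Cgn, cingulin, led in normal Suprabasal (11.4 against 3.33 CPM), and Mpdz, a multi-PDZ scaffold, was lowest (0.438 against 10.4 CPM). In Regeneration and Wound_Stress over Basal and Suprabasal, 1 of 18 scaffolds was higher and 2 lower, 0 of 8 other membrane proteins were higher and 3 lower, and 0 of 6 partners were higher and 3 lower. Their medians were -0.43, -0.87 and -1.24, against 0.02 for all genes, of which 8.43% were higher and 12.8% lower.

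For each member the genes with the most similar pattern over the 10 clusters were listed, which describes the clusters and has no test. The clusters of a library share its depth and its free RNA. After Krt17, Cldn1 was closest to Defb1 (0.967) and Bbox1 (0.946), and Cldn4 to Calm4 (0.956), Psmd3 (0.937) and Krtdap (0.936). The rectal members followed rectal genes: Cldn2 was closest to Cftr (0.992), Creb3l1 (0.991) and Mgam (0.991), Cldn3 to Csrp2, Prr15l and Fbp2 (0.989 or more), Cldn7 to Ceacam1 (0.992) and Hoxd13 (0.991), among others, and Cldn15 to Gm1123, Tpsg1 and Nxpe2 (0.993 or more). Cldn8 was closest to Mthfd2l (0.939), Grn (0.908) and Ndufa6 (0.900), Cldn12 to Lzts2, Hint2 and Plscr1 (0.960 or more), Cldn23 to Slc35c1, Slc35a2 and Maoa (0.973 or more), and Ocln to Anxa4 (0.973) and Mkrn1 (0.969), among others. The likeness rests on 10 points for each gene.

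Cells that passed the study's filters but carry no deposited name made up 610 of 1548 normal and 1078 of 5225 wounded cells. Summed over the 10 genes they held 66.8 CPM in the normal library, below each named cluster there, and 78.0 CPM in the wounded one, above Regeneration (61.7 CPM) and Wound_Stress (39.4 CPM) and below the other 4. Clustering gave 9 groups in the normal and 11 in the wounded library, which are called here by their leading genes or by markers. Cldn1 was highest in those led by Krt6a and Krt16, at 129 CPM in 79 normal cells (101 to 163) and 165 CPM in 135 wounded cells (145 to 186), and the same cells held 21409 and 20862 CPM of the transition zone markers. In the cluster of each library with the most RNA of the 9 sebaceous markers, anal gland-like cells, Cldn1 stood at 33.0 CPM (normal, 100 cells) and 37.9 CPM (wounded, 120 cells), and Cldn12 at 21.2 CPM (13.7 to 31.2) and 11.3 CPM (7.18 to 17.0). Cldn4 held 0 and 2 UMIs there. The wounded clusters led by S100a8 and Gsta3 (227 cells) and by Gadd45g and Plin2 (74 cells) also detected all 9 markers, at 6269 and 8309 CPM in sum, and held Cldn1 at 13.1 and 24.1 CPM and Cldn12 at 6.08 and 6.56 CPM. Cldn8 was highest in 2 normal groups, at 21.2 CPM in cells led by Egr4 and Saa3 and at 23.0 CPM in cells led by Igkc and Igha. The former held 3108 CPM of the sebaceous and 6335 CPM of the stratified basal markers, and the latter 2042 and 4606 CPM. The 5 immune markers summed to 0 and 26.0 CPM in them. Cldn15 was at 78.3 CPM (8 UMIs, 33.8 to 154) in 18 normal cells led by hemoglobin genes, Ccl21a and Cldn5, the claudin of endothelium, which itself stood at 1468 CPM there. In the wounded endothelial-like group of 27 cells, Cldn5 stood at 534 CPM and Cldn15 held 2 UMIs.

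**Figure D5:**
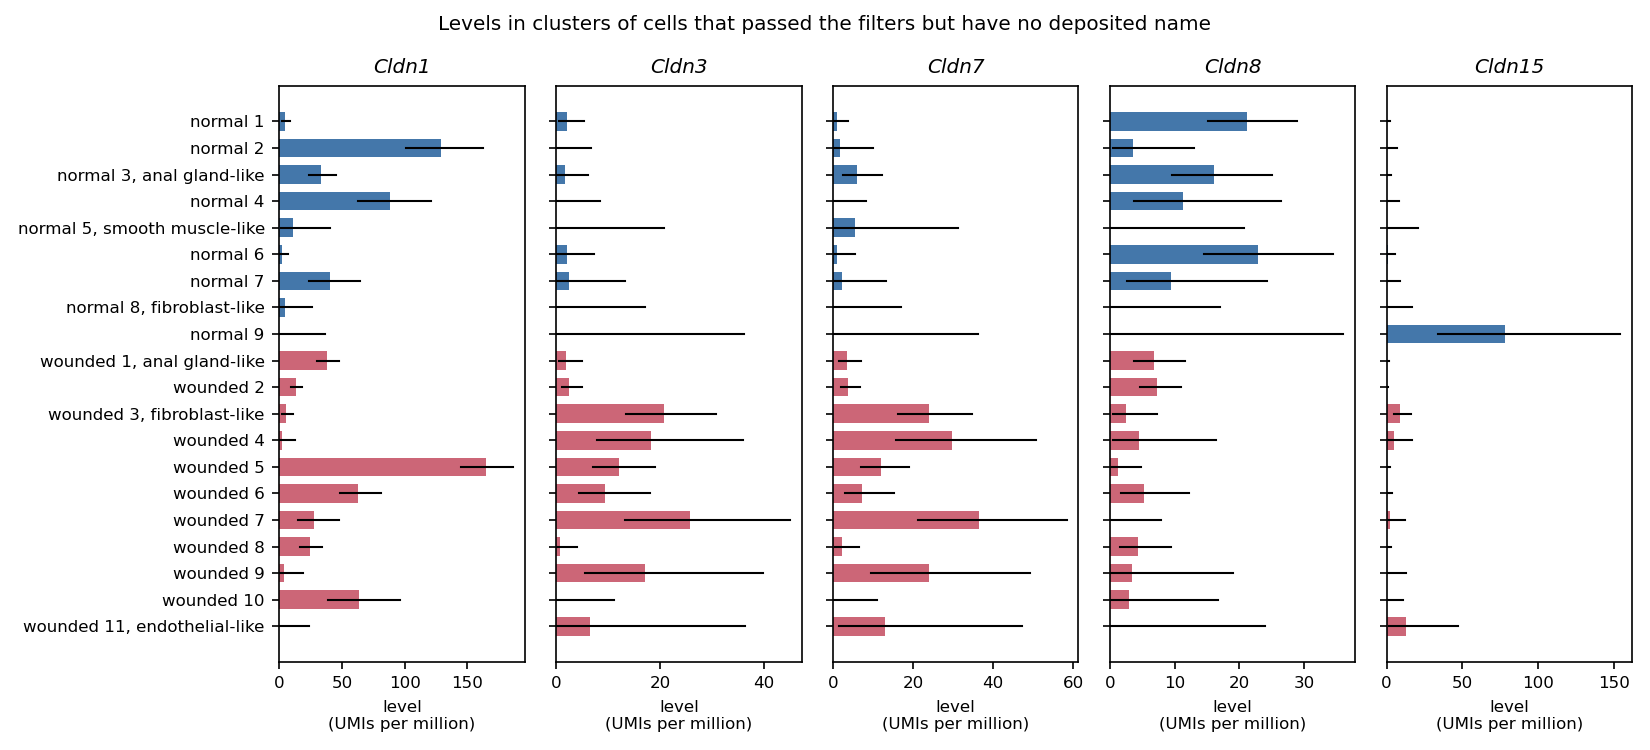
Levels of Cldn1, Cldn3, Cldn7, Cldn8 and Cldn15, in CPM (counts per 1000000 UMIs), in the 9 normal (blue) and 11 wounded (red) clusters of cells that passed the filters but have no deposited name; bars start at 0 and lines are 95% Poisson intervals for counting error. Cldn1 is highest in normal cluster 2 and wounded cluster 5, Cldn15 reaches 78.3 CPM in normal cluster 9, and Cldn7 reaches 36.4 CPM in wounded cluster 7 and 24.1 CPM in the wounded fibroblast-like cells.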

How the data were processed

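Single cells of the anorectal junction were sequenced as 1 normal and 1 wounded library. The authors deposited counts of UMIs per gene and barcode, aligned to mm10. The submitters' processing notes name Cell Ranger 3.1.0 and Seurat 3.2.2, and the file headers name Cell Ranger 3.1.0 for the normal and 4.0.0 for the wounded library. The authors also deposited a table per library on the natural log scale, with a cluster name for each of 939 and 4147 cells. Back-transformed from the natural log, its values less 1 are whole numbers, and how these were made is not given in the sources used here.

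Levels were computed from the counts (17617944 UMIs in 2564 normal and 88260050 UMIs in 17216 wounded barcodes) with the deposited names. Barcodes passed with over 200 and under 5000 genes and under 25% mitochondrial UMIs, as in the study, which 1 deposited normal cell failed. For each cluster a gene's counts were added up and set over all UMIs that the cluster's cells held. Levels have exact Poisson, shares Clopper-Pearson and log2 ratios exact binomial 95% intervals (scipy 1.17.1), which cover counting error only. Where 1 group had 0 UMIs, 3 UMIs over the group stood in its place. Checked on simulated counts for rectum over stratified clusters in the normal library, the ratio recovered the direction of 197 of 200 changed genes among 11406. With 1 library in each condition, this check cannot speak to the spread between animals or libraries. Cells without a name were clustered with scanpy 1.11.5 (2000 variable genes, 10 principal components, 20 neighbours, Leiden resolution 0.5), and doublets were not called. A cluster is called like a cell type only from listed markers.

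The 10 genes, the lists and the marker genes were chosen with earlier results of these data known. Genes named beside the members are, by rule, the highest and lowest ratio of each list and the 3 genes of highest Pearson r on log2(CPM + 10), among genes with at least 50 CPM in a cluster. Some genes that this rule names are not reported here. Alternatives were mean CPM per cell, library sizes without mitochondrial UMIs, median-of-ratios scaling, leaving out the 5% deepest cells, the deposited whole numbers, other thinning depths, a Leiden resolution of 1.0, a pseudocount of 1 and Spearman's rho. Promoters are RefSeq's.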

Additional observations from a re-analysis of the deposited data

Results flagged for a closer look

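Some members moved in opposite directions in the 2 libraries or clusters under the same split of cells, with intervals on either side of 0. The difference itself was not tested, since each condition is 1 library. In goblet-rich over goblet-poor Rectum cells, the log2 ratio of Cldn2 was 1.04 in the normal library (38 against 18 UMIs in 21 cells each) and -0.44 in the wounded library (135 against 196 UMIs in 132 cells each). The log2 ratio of Cldn3 was -0.46 in the normal and 0.18 in the wounded library. In differentiation-rich over differentiation-poor cells, Cldn4 was at -1.90 in normal Anal Canal and 4.18 in wounded Suprabasal, and Cldn3 was at -4.46 and 0.60. These last are different clusters as well as different libraries. Cldn3 stood at 13.5, 9.15 and 20.3 CPM from the lowest to the highest tercile of wounded Suprabasal. All 3 levels lay below the wounded fibroblast-like cells, so no direction of Cldn3 is read there.

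A signal was also present in barcodes that no comparison used. In those that failed the filters, the 10 members summed to 523 CPM (487 to 559.9) over 1015 normal barcodes and to 510 CPM (502 to 517) over 11991 wounded barcodes. Cldn3 stood at 177 and 183 CPM in them, and Cldn7 at 225 and 238 CPM.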

How the results depend on the processing

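With 1 library per condition no replicate could be left out. No paired analysis was possible because each group has 1 sample and no result comes from a test. The number of members past 2-fold stayed within 1.5 times under each alternative in 14 of the 17 comparisons. The exceptions were Hybrid over the stratified clusters, with 4 members and 2 with the deposited whole numbers, and, with mean CPM per cell, Rectum in the wounded over the normal library, with 4 and 2, and Suprabasal in the wounded over the normal library, with 3 and 5. The cause was not tested. Member and cluster pairs with over 10% of cells numbered 13 of 100 at 2000 UMIs, 6 at 1000 UMIs and 35 without thinning. Of the 30 genes of most similar pattern, 13 were kept with a pseudocount of 1 and 5 with Spearman's rho, so these names depend on the scale. No member past 2-fold changed direction under an alternative. Cldn4 in wounded Suprabasal over Basal, within 2-fold at 0.21, was at -0.52 with mean CPM per cell. Median-of-ratios scaling moved the share of calls that were higher, over all genes, from 27.8% to 47.9% for Suprabasal over Basal in the normal library, from 74.4% to 58.1% for Hybrid over the stratified clusters, from 74.2% to 63.7% for wounded over normal Suprabasal, and in the differentiation terciles from 22.2% to 46.7% in wounded Suprabasal and from 20.4% to 32.8% in wounded Basal. With genes of 1 UMI or more counted, 25.7% to 53.0% of all genes passed 2-fold, and 2.56% to 17.3% passed 4-fold. Depth limits the low members most: Cldn15 and Cldn23 had 12 and 15 UMIs in normal Rectum.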
